A study of Mus musculus with 31 samples.

Results

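The 7 libraries described here set rosiglitazone against its vehicle DMSO in macrophages that carry a knockout of the nuclear receptor PPARγ (KO). They were chosen by their labels, 3 KO libraries with rosiglitazone and 4 KO libraries with DMSO, out of 31 libraries in the series. The mice were C57BL/6, 8.5 weeks old. Their peritoneal cavity received 3% thioglycollate, which draws in macrophages, and the cells were taken 4 days later and kept in culture overnight. KO cells then received 1 uM rosiglitazone or an equal volume of DMSO for 24 h. Cells of control mice, which the sample titles call WT, received the same treatments, with 4 libraries for rosiglitazone and 4 for DMSO. The labels call the mutant PPARgammaMPKO or PPARgMKO, a macrophage knockout; the sources used here name neither the promoter that drives the deletion nor the exons removed.

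The receptor PPARγ binds fatty acids and their derivatives, pairs with RXR and activates genes by which cells take up, store and burn lipid. In macrophages these include genes for fatty acid binding proteins, lipid droplet coats and the cholesterol-sensing receptor LXRα. Rosiglitazone is a thiazolidinedione, a synthetic ligand of PPARγ; thiazolidinediones also bind proteins outside this receptor, among them the mitochondrial proteins mitoNEET and the mitochondrial pyruvate carrier. Setting the drug against its vehicle in KO cells asks which of its effects remain when the receptor is removed.

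With rosiglitazone, 13 of 21 tested PPARγ target genes rose in control cells, against 3.09% of all genes tested. In KO cells 0 of these targets passed, and 0 of all 10327 genes did. The highest mean fold of these targets in KO cells was that of Angptl4. Angptl4, which encodes a secreted inhibitor of lipoprotein lipase, averaged 1.14 ± 0.93 FPKM in KO cells with rosiglitazone and 0.31 ± 0.13 FPKM with DMSO (SD, n = 3 and 4). In control cells it averaged 29.3 ± 3.04 FPKM with rosiglitazone and 2.43 ± 0.25 FPKM with DMSO (SD, n = 4 each). FPKM is a level per gene length and library size, rescaled here so that the typical gene has the same level in every library. The KO cells with rosiglitazone thus had a lower mean level of Angptl4 than the control cells with DMSO.

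The libraries of KO cells with rosiglitazone are titled 1 to 3, but their expression followed that of the KO mice numbered 2 to 4. For each library, the residual from its group mean was correlated with that of every other KO library over the 10327 genes tested. Rosiglitazone libraries 1, 2 and 3 correlated with DMSO libraries 2, 3 and 4 at 0.43, 0.79 and 0.74, against 0.21, -0.11 and -0.68 for the numbers as titled. Of 9 best matches in the DMSO, untreated and IL4 groups, 8 were with the number one higher and 0 with the own number. These correlations run over genes of libraries from the same mice and are a description. The Y-linked gene Ddx3y had 18.4 FPKM in rosiglitazone library 1, and 0 in rosiglitazone libraries 2 and 3. It had 19.5 FPKM in DMSO library 2, and at most 0.0282 FPKM in the other DMSO libraries. Xist, the RNA of the inactive X chromosome, had 0.00633 FPKM in rosiglitazone library 1 and 1.39 FPKM in DMSO library 2, beside 13.0 and 24.6 FPKM in the other rosiglitazone libraries and 12.7 to 29.6 FPKM in the other DMSO libraries. What RNA of another mouse adds to DMSO library 2 was not tested. The rosiglitazone libraries are therefore set beside mice 2 to 4 below, and KO mouse 1 has no library with rosiglitazone.

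**Figure D1:**
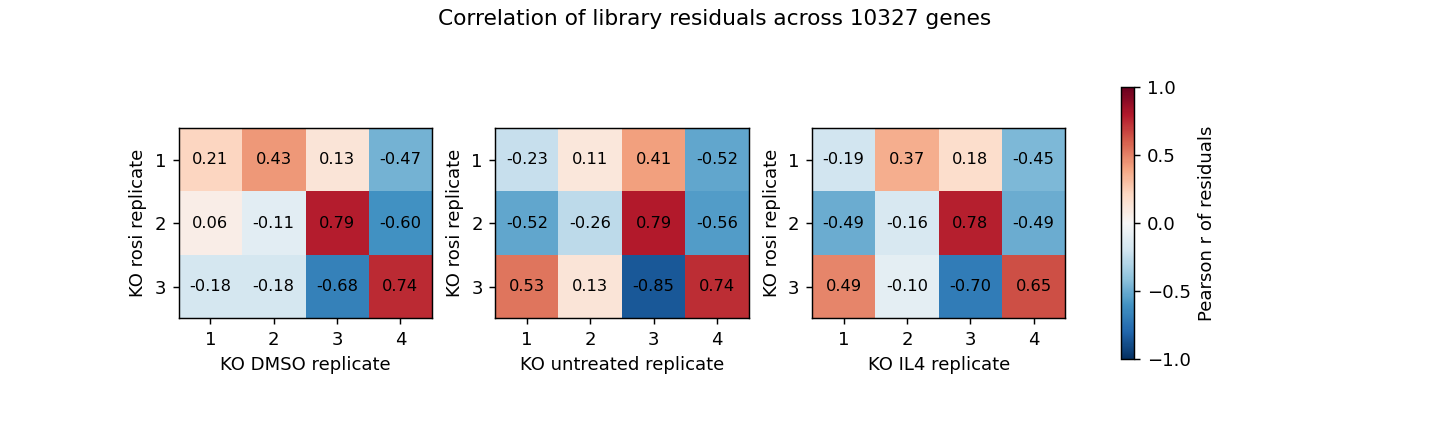
Pearson correlation of residuals over 10327 genes between the 3 KO libraries with rosiglitazone (down) and the 4 KO libraries of the DMSO, untreated and IL4 groups (across). The highest value in a row is mostly 1 column to the right of the titled number, such as 0.79 between rosiglitazone library 2 and DMSO library 3.

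Depth differed among the 7 libraries. From the spacing of the lowest values, it ran from 0.877 to 2.20 times that of KO DMSO library 1, an estimate needed since the sources used here give no read totals. The number of genes at 1 FPKM or more was 9622 to 9890. Genes of macrophage identity summed to 3101 to 3947 FPKM in KO cells with rosiglitazone and 2992 to 3833 FPKM with DMSO, over 16 genes. The 12 measured markers of T and NK cells summed to at most 0.410 and 0.630 FPKM in these groups, and 5 of them were at 0 in all 7 libraries. The 17 measured markers of mesothelial cells and fibroblasts summed to 168 to 207 FPKM with rosiglitazone and 157 to 239 FPKM with DMSO. Across the marker lists of 10 cell types and the sex-linked genes, 0 members passed the test in KO cells. Since 0 of all 10327 genes passed there, this count cannot show whether the cell types changed. The lists of T and NK cells, mast cells and erythroid cells had 0 members tested. Those of B cells, dendritic cells and adipocytes had 1 each. In bulk RNA, fewer cells of a type and less RNA per cell cannot be told apart.

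Pparg itself checks the genotype labels only in part, since a level per gene cannot show the loss of single exons. It had 39.8, 38.4 and 48.4 FPKM in KO libraries 1 to 3 with rosiglitazone, against 40.0, 43.8, 40.9 and 48.9 FPKM in KO libraries 1 to 4 with DMSO. The KO groups overlap, with means of 42.2 ± 5.39 and 43.4 ± 4.00 FPKM, beside 43.5 ± 2.60 FPKM in control cells with DMSO. Control cells with rosiglitazone had 33.0 ± 2.10 FPKM (SD, n = 4 each), a log2 difference of -0.39 ± 0.10 (SE) that passed (adjusted p = 0.0167, limma). In KO cells the log2 difference was -0.04 ± 0.10. The difference between the genotypes passed with the mouse as a block (adjusted p = 0.0484, limma) and did not pass without it (adjusted p = 0.568). Among the other receptors, Ppard, which encodes PPARδ, had 1.98, 1.78 and 1.51 FPKM with rosiglitazone and 1.82, 1.33, 1.29 and 2.01 FPKM with DMSO in KO cells. Ppara, which encodes PPARα, was at or below 0.0162 FPKM in the 7 libraries. Of 20 receptors and coregulators, 17 were tested and 0 passed in KO cells, where 0 of all 10327 genes passed.

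No gene passed in KO cells at an adjusted p under 0.05, that is 0 of 10327 or 0%, with limma on log2(rescaled FPKM + 1). The smallest adjusted p was 0.926. At an unadjusted p under 0.05 there were 145 genes, 1.40% of those tested; with 1 of the 7 libraries left out this count lay between 84 (without DMSO library 1) and 422 (without rosiglitazone library 3), and was 402 without DMSO library 4 and 243 without rosiglitazone library 2. With the mouse as a block, again 0 genes passed and the smallest adjusted p was 0.151. Leaving out DMSO library 4 gave 5 genes and leaving out rosiglitazone library 2 gave 2. Leaving out any other of the 7 libraries gave 0. These fits with the block and a library left out were added after the data were seen. With all libraries, the fit with the block had 241 genes higher and 187 lower at an unadjusted p under 0.05. These are 2.33% and 1.81% of the genes tested. These shares move with single libraries: there were 473 higher and 368 lower without DMSO library 4, and 158 and 109 without DMSO library 2. With no true difference, a share of about 0.05 of genes would meet this threshold on average. With all libraries both fits lay below that, at 1.40% without the block and 4.14% with it. Without DMSO library 4 the fit with the block was above it, at 8.14%. These counts alone are therefore no evidence of differences. The median half-width of the 95% interval of a log2 difference was 0.240 without the block and 0.177 with it. These intervals are for single genes without adjustment. To pass after adjustment over all genes, a difference of the typical gene had to be larger than these half-widths. Angptl4, at 0.63, did not pass. In control cells 319 genes rose and 125 fell in the same fit, 3.09% and 1.21% of the genes tested. The difference between the 2 genotypes passed for 82 genes (0.794%), with the response lower in KO cells for 71 and higher for 11. With the mouse as a block, 1391 genes passed in control cells and 354 for the difference.

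**Figure D2:**
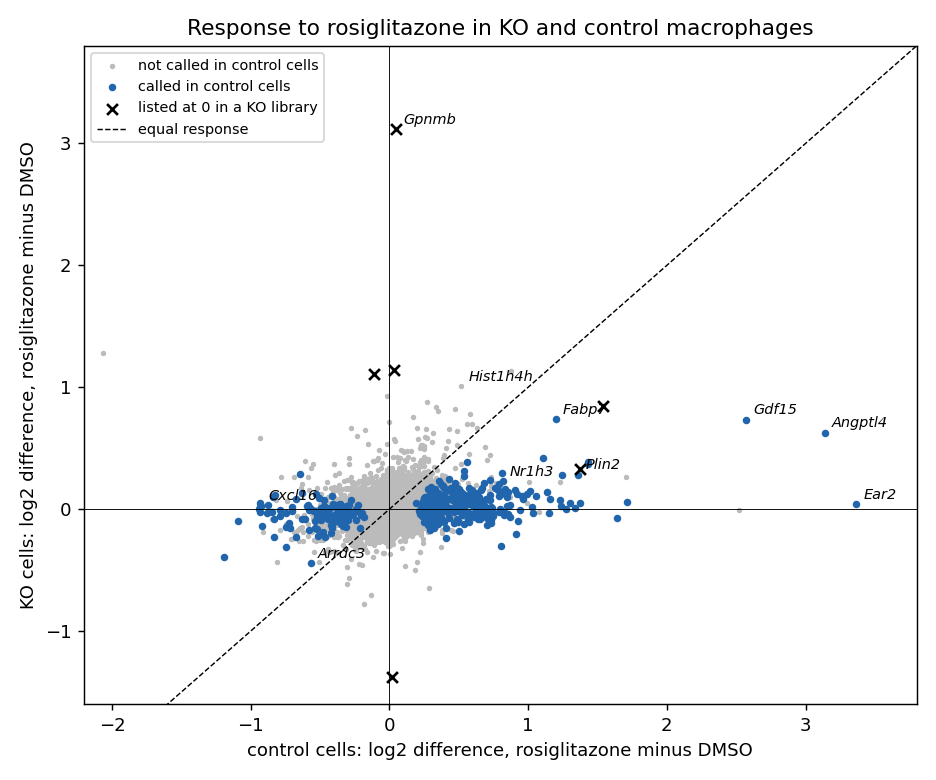
Log2 difference between rosiglitazone and DMSO for each of 10327 genes in KO cells (vertical) and control cells (horizontal), from the fit without the block; blue points passed in control cells, and crosses are the 6 genes listed at 0 in a KO library. The blue points lie along the horizontal axis and not along the dashed line of equal response: Ear2 is at 0.04 and 3.37, and Angptl4 at 0.63 and 3.14. The scale understates fold changes of genes near 0 FPKM in KO cells, such as Ear2.

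Several of the largest differences in KO cells came from values of exactly 0. Gpnmb, a glycoprotein of lipid-laden macrophages, was listed at 0 in KO DMSO library 4 and between 4101 and 6249 FPKM in the other 6 libraries, which gives a log2 difference of 3.12. Galnt6, Nono, Serbp1, Etv3 and Zfp281 were also listed at 0 in at least 1 of the 7 libraries while others held at least 5.45 FPKM. These 6 genes are not read as differences.

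The genes that control cells changed were then read in the KO libraries. They were chosen by the contrast of the control libraries, in a fit where the KO libraries also enter the estimate of spread. The 319 genes that rose in control cells had a median log2 difference of 0.47 there and of 0.03 in KO cells, against -0.0038 over all genes tested in KO cells. Of these, 206 (64.6%) were above 0 in KO cells, against 48.1% of all genes. With the mouse as a block, 24 were higher and 2 lower at an unadjusted p under 0.05, or 7.52% higher against 2.33% of all genes. Their median was 0.07 in mouse 2, 0.06 in mouse 3 and -0.04 in mouse 4. The 125 genes that fell in control cells had a median log2 difference of -0.43 there and -0.04 in KO cells, and 87 (69.6%) were below 0 in KO cells. Of these, 13 were lower and 2 higher at an unadjusted p under 0.05 with the block, or 10.4% lower against 1.81% of all genes. On both sides the medians in KO cells were thus within 0.05 of 0 on the log2 scale, with a shift of the counts in the direction of the control response. With FPKM as deposited the median of the 319 genes was -0.038, on a scale where that of all genes was -0.08.

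The KO median was higher for genes with a larger control response. The 178 genes that rose by a log2 difference under 0.5 in control cells had a KO median of 0.02, and the 117 genes from 0.5 to 1 had 0.04. The 24 genes that rose by at least 1, with a median of 1.26 in control cells, had a KO median of 0.08. Their median was 0.23 in mouse 2, 0.03 in mouse 3 and 0.12 in mouse 4, with 15, 13 and 17 of the 24 genes above 0. For 18 of these 24 genes the difference between the genotypes passed.

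The promoters of Gdf15 and Txnip are shown because, among the named genes searched, they hold the motifs described here. Each is the 250 bases before the start of the transcript on the gene's own strand, from RefSeq with build GRCm38.p6. Gdf15 lies at chr8:70632457-70632706 on the minus strand, and the capitals mark a direct repeat of AGGNCA spaced by 1 base (AGGNCANAGGNCA), the arrangement that PPAR and RXR pairs are known to bind, from 55 to 43 bases before the start. Txnip lies at chr3:96557707-96557956 on the plus strand, and the capitals mark a pair of E-box-like boxes (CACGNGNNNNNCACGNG), the arrangement of a carbohydrate response element, from 85 to 69 bases before the start.
Gdf15: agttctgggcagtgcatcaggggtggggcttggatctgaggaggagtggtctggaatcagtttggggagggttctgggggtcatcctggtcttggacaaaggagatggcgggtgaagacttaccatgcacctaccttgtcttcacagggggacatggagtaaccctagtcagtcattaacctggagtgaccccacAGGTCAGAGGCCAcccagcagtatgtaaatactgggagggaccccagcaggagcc
Txnip: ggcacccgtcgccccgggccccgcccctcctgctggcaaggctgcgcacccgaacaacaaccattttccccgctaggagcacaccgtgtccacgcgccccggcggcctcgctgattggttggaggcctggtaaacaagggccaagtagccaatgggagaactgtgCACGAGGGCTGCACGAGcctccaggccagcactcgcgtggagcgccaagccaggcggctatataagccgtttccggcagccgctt
Both strands were searched. The direct repeat was found in 111 of 32851 such windows (0.338%) and the paired boxes in 15 (0.0457%). The direct repeat was not found in the windows of Plin2, Fabp7, Nr1h3, Fos, Rab20, Cpt1a and Pnpla2, nor the paired boxes in those of Arrdc3 and Arrdc4. No window was matched to Angptl4, so its promoter was not searched. A second listed start of Gdf15 holds no match. These letters describe the windows and show no binding.

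Of the 31 PPARγ target genes listed, 21 were tested. In control cells 13 rose, against 3.09% of all genes, and in KO cells 0 passed, as for all genes. The median log2 difference over those tested was 0.06 in KO cells and 0.79 in control cells, beside -0.0038 and 0.00094 over all genes. With the block, 5 of the 21 were higher and 0 lower at an unadjusted p under 0.05, against 2.33% and 1.81% of all genes. The 5 were Angptl4, Gdf15, Nr1h3, Plin2 and Pnpla2. The list was written with earlier results of these data known and is no independent evidence of direction.

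Angptl4 had 2.21, 0.492 and 0.709 FPKM in KO libraries 1 to 3 with rosiglitazone, against 0.183, 0.375, 0.220 and 0.463 FPKM in KO libraries 1 to 4 with DMSO. Every KO library with rosiglitazone lay above every one with DMSO, and library 1 stood above the other two. Library 1 was also the only KO library with rosiglitazone that held Ddx3y. What the sex of the mouse adds was not tested. The log2 difference was 0.63 ± 0.16 without the block and 0.62 ± 0.12 with it (SE), adjusted p = 1.00 and 0.151 (limma), and all 3 mice were higher, by 1.22, 0.29 and 0.22. Without rosiglitazone library 1 the log2 difference was 0.29. With the block, Angptl4 passed without DMSO library 4 (adjusted p = 0.0192, limma) and without rosiglitazone library 2 (adjusted p = 0.0379). It did not pass with any other single KO library of these groups left out. Here and below, such fits with the block were added after the data were seen. The mean was 3.66-fold higher in KO cells and 12.0-fold higher in control cells, and the difference between the genotypes was -2.51 ± 0.22 on the log2 scale (adjusted p = 7.54e-08).

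Gdf15, which encodes a secreted hormone induced by stress and by PPARγ ligands, had 3.35, 4.10 and 2.55 FPKM in KO cells with rosiglitazone and 1.21, 1.45, 1.84 and 1.89 FPKM with DMSO. The KO groups did not overlap. Their log2 difference was 0.73 ± 0.24 without the block and 0.65 ± 0.14 with it (SE; adjusted p = 1.00 and 0.264, limma), and it passed with the block where DMSO library 4 was left out (adjusted p = 0.021). In control cells Gdf15 averaged 31.4 ± 6.74 FPKM with rosiglitazone and 4.67 ± 2.25 FPKM with DMSO (SD, n = 4 each), and the genotypes differed by -1.84 ± 0.33 (SE; adjusted p = 0.00175).

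Plin2, a coat protein of lipid droplets, had 272, 244 and 310 FPKM in KO cells with rosiglitazone, against 188, 223, 217 and 282 FPKM with DMSO. The groups overlap, but each mouse was higher with rosiglitazone, by log2 differences of 0.29, 0.17 and 0.14. Control cells held 1156 ± 56.4 FPKM with rosiglitazone and 450 ± 30.3 FPKM with DMSO (SD, n = 4 each), so that the KO level was below both. Pnpla2, a triglyceride lipase, was higher in mice 2 and 3 by 0.52 and 0.42 and lower in mouse 4, at -0.13. Nr1h3, which encodes LXRα, had 8.66, 7.30 and 7.18 FPKM in KO cells with rosiglitazone and 6.39, 5.98, 6.80 and 6.55 FPKM with DMSO. These did not overlap, with a log2 difference of 0.23 ± 0.08 (SE; adjusted p = 1.00, limma). In control cells Nr1h3 averaged 41.4 ± 2.04 and 23.2 ± 2.43 FPKM with rosiglitazone and DMSO (SD, n = 4 each), and the genotypes differed by -0.59 (adjusted p = 0.00175).

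**Figure D3:**
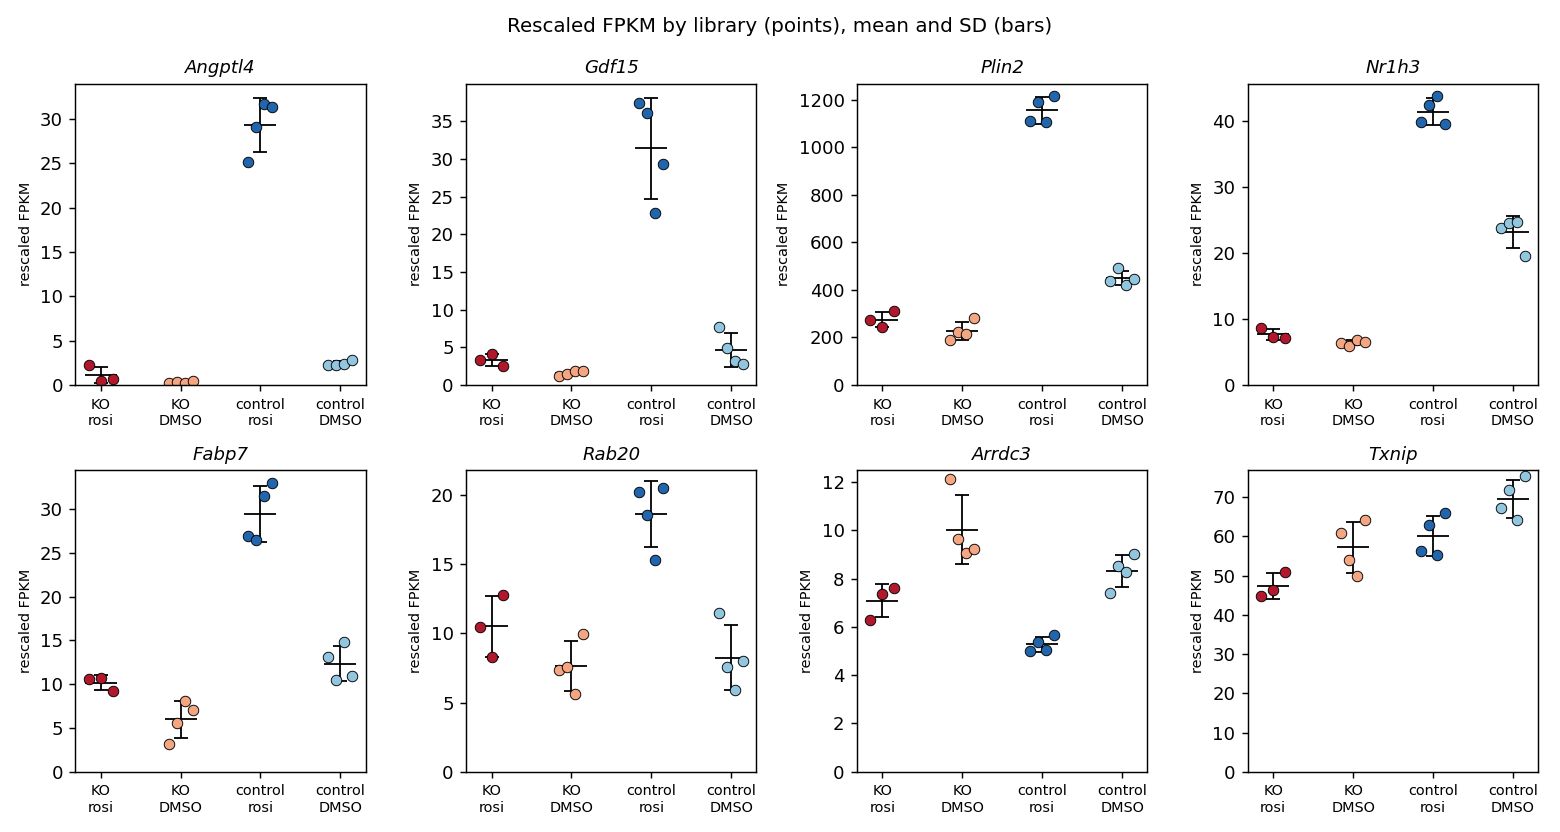
Rescaled FPKM of 8 genes in each library (points) with group means and SD (bars) for KO cells with rosiglitazone (n = 3) and DMSO (n = 4) and control cells with rosiglitazone and DMSO (n = 4 each). Angptl4 is at 0.492 to 2.21 FPKM in KO cells with rosiglitazone and at 25.1 to 31.7 FPKM in control cells with rosiglitazone; Arrdc3 is lower with rosiglitazone in both genotypes.

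Other targets had KO log2 differences below that of Nr1h3 (0.23) without the block. Hilpda, at 0.20, came near it and was above 0 under all 28 settings tried. Fabp4, a fatty acid binding protein of macrophages and fat cells, had 181, 183 and 229 FPKM with rosiglitazone and 152, 183, 188 and 216 FPKM with DMSO in KO cells. Its log2 difference was 0.10 with a 95% interval of -0.21 to 0.40 in KO cells and 0.85 ± 0.14 (SE; adjusted p = 0.000181) in control cells. The genotypes differed with the block (adjusted p = 0.000773) but not without it (adjusted p = 0.0872). Dgat1, an enzyme of the last step of triglyceride synthesis, was at 5.03 ± 0.55 FPKM with rosiglitazone and 5.16 ± 0.57 FPKM with DMSO in KO cells (SD, n = 3 and 4). In control cells Dgat1 rose by 0.84. Hadha and Ech1, enzymes of fatty acid oxidation in mitochondria, had log2 differences of -0.08 and 0.08 in KO cells and rose by 0.57 and 1.16 in control cells. Abcg1, a cholesterol exporter, was at -0.10 in KO cells and rose by 0.92 in control cells. Acsl1, which links fatty acids to coenzyme A, was at -0.01 and rose by 0.52. For Dgat1, Hadha, Ech1, Abcg1 and Acsl1 the difference between the genotypes passed (adjusted p = 0.00265 or smaller). Hilpda, a lipid droplet protein of hypoxic cells, was at 0.20 with a 95% interval of -0.21 to 0.62 in KO cells and 0.79 in control cells. Cd36, a scavenger receptor that takes up fatty acids, had 460, 504 and 508 FPKM with rosiglitazone and 329, 428, 500 and 444 FPKM with DMSO. Its SE was 1.23, since Cd36 is listed at 0 in a KO library with IL4, so the interval says little.

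The genes with the largest control responses outside the target list gave like values. Ear2, a ribonuclease of eosinophils and some macrophages, was at most 0.279 FPKM in KO cells with rosiglitazone and at most 0.0710 FPKM with DMSO. It averaged 13.1 ± 3.66 FPKM in control cells with rosiglitazone and 0.34 ± 0.15 FPKM with DMSO (SD, n = 4 each). Slco2b1, an organic anion transporter, was at most 0.122 FPKM in KO cells with rosiglitazone and at most 0.0488 FPKM with DMSO. Its control means were 6.29 ± 1.48 FPKM with rosiglitazone and 1.95 ± 0.53 FPKM with DMSO. At the KO levels of Ear2 and Slco2b1, log2(rescaled FPKM + 1) understates fold changes. The log2 differences of both genes therefore do not show whether a fold response was lost. Lpcat3, which remodels phospholipids, averaged 7.55 ± 0.37 FPKM with rosiglitazone and 7.45 ± 0.85 FPKM with DMSO in KO cells, and rose by 1.24 in control cells. Unc119, a carrier of lipid-modified proteins, averaged 4.17 ± 0.58 FPKM with rosiglitazone and 4.18 ± 0.61 FPKM with DMSO in KO cells, and rose by 1.28 in control cells. On the falling side, Cxcl16, a chemokine and scavenger receptor, had log2 differences of 0.03 in KO cells and -0.92 in control cells. Arl4c, a small GTPase, was at -0.10 and -1.09, Slc7a11, a cystine transporter, at 0.05 and -0.93, and Slc2a6, a sugar transporter of lysosomes, at 0.02 and -0.93. For these 8 genes the difference between the genotypes passed (adjusted p = 0.00175 or smaller).

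For Fabp7 and Rab20, which rose in control cells, KO values lay in the same direction and the difference between the genotypes did not pass without the block. Fabp7, a fatty acid binding protein known from brain, had 10.6, 10.7 and 9.18 FPKM in KO cells with rosiglitazone and 3.15, 5.61, 8.08 and 7.05 FPKM with DMSO. The KO groups did not overlap; the log2 difference was 0.74 ± 0.22 without the block and 0.54 ± 0.15 with it (SE; adjusted p = 1.00 and 0.847, limma). It was 1.20 ± 0.21 in control cells (adjusted p = 0.000395), and the difference between the genotypes had an adjusted p of 1.00 without the block and 0.0844 with it. Rab20, a small GTPase of the phagosome, had 10.5, 8.32 and 12.8 FPKM in KO cells with rosiglitazone and 7.37, 7.60, 5.66 and 9.99 FPKM with DMSO. These overlap, but the mice were each higher, by 0.41, 0.48 and 0.33, against a log2 difference of 1.11 in control cells. The genotypes differed for Rab20 with the block (adjusted p = 0.00147) and not without it (adjusted p = 0.366). Its KO difference passed with the block where DMSO library 4 was left out (adjusted p = 0.0292, limma).

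Arrdc3 had the smallest p in KO cells. It encodes an arrestin-domain protein that sorts membrane receptors. It had 6.30, 7.35 and 7.59 FPKM in KO cells with rosiglitazone, against 12.1, 9.66, 9.06 and 9.23 FPKM with DMSO. All 3 libraries with rosiglitazone lay below all 4 with DMSO. Its log2 difference was -0.44 ± 0.10 without the block and -0.39 ± 0.07 with it (SE; adjusted p = 0.926 and 0.151, limma), and -0.55, -0.27 and -0.25 by mouse. With the block and without DMSO library 4 it passed (adjusted p = 0.0185, limma). In control cells Arrdc3 averaged 5.28 ± 0.32 FPKM with rosiglitazone and 8.31 ± 0.67 FPKM with DMSO (SD, n = 4 each), and fell by 0.56 on the log2 scale (adjusted p = 0.00012). The genotypes differed by 0.12 ± 0.13 (SE; adjusted p = 1.00). Its relative Txnip, which restrains glucose uptake and binds thioredoxin, had 44.9, 46.3 and 51.0 FPKM in KO cells with rosiglitazone and 61.0, 54.0, 49.9 and 64.2 FPKM with DMSO. The groups overlap, while mice 2, 3 and 4 differed by -0.26, -0.11 and -0.33 with adjusted p = 0.213 with the block (limma). It passed with the block where rosiglitazone library 2 was left out (adjusted p = 0.0379). In control cells the log2 difference of Txnip was -0.21 (adjusted p = 0.302). Arrdc4, a further relative named after its values were seen, differed by -0.41, -0.19 and 0.11 in the 3 mice. Pfkfb4, a regulator of glycolysis, had 7.26, 8.04 and 6.77 FPKM in KO cells with rosiglitazone and 8.80, 8.30, 9.08 and 8.20 FPKM with DMSO, and did not pass in either fit. The 18 glycolysis genes had a median log2 difference of -0.02 without the block and 0.02 with it. At an unadjusted p under 0.05 with the block, 1 was higher and 1 lower, against 2.33% and 1.81% of all genes.

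**Figure D4:**
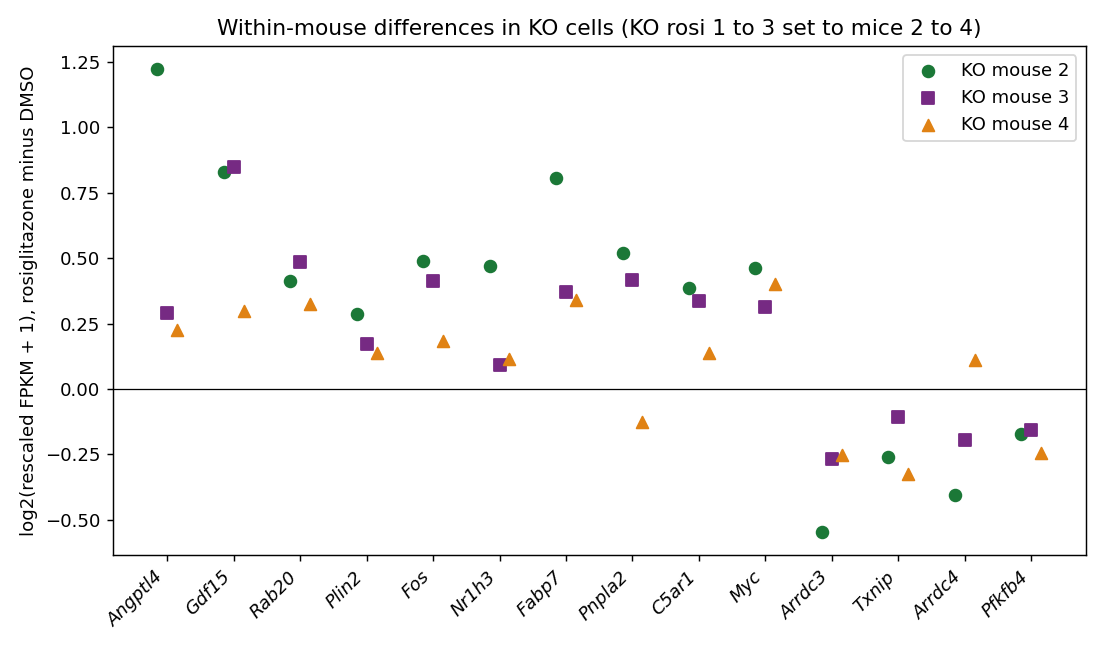
Log2 difference between rosiglitazone and DMSO within KO mice 2, 3 and 4 for 14 named genes, on the log2(rescaled FPKM + 1) scale, with rosiglitazone libraries 1 to 3 set beside mice 2 to 4. Angptl4 is at 1.22 in mouse 2 and at 0.29 and 0.22 in mice 3 and 4; Arrdc3 is below 0 in all 3, and Pnpla2 and Arrdc4 differ in sign between mice.

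Immediate early genes encode factors made within minutes of a stimulus. Of 25 listed, 17 were tested and 0 passed in KO cells; with the block 4 were higher and 1 lower at an unadjusted p under 0.05, against 2.33% and 1.81% of all genes. Fos, a subunit of AP-1, had 5.83, 7.12 and 3.67 FPKM in KO cells with rosiglitazone and 3.85, 3.87, 5.10 and 3.11 FPKM with DMSO, and was higher in each mouse, by 0.49, 0.41 and 0.18. In control cells Fos averaged 15.8 ± 1.5 FPKM with rosiglitazone and 5.23 ± 0.55 FPKM with DMSO, and the genotypes differed by -1.07 (adjusted p = 0.0164). Myc, a growth regulator, had 1.61, 1.38 and 1.44 FPKM in KO cells with rosiglitazone and 0.928, 0.893, 0.917 and 0.844 FPKM with DMSO. The KO groups of Myc did not overlap, with a log2 difference of 0.38 ± 0.13 (SE; adjusted p = 1.00, limma). It was 0.56 ± 0.12 (SE; adjusted p = 0.00531) in control cells, and the genotypes differed by -0.17 ± 0.18 (adjusted p = 1.00). Btg2, which slows the cell cycle, was at -0.20 in KO cells and -0.03 in control cells.

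The list of thiazolidinedione targets outside PPARγ was the second of interest. It holds the genes of such proteins, whose mRNA levels do not show whether the drug acts through the proteins. Of 14 genes listed, 9 were tested and 0 passed in KO cells, with 0 at an unadjusted p under 0.05 with the block. Their median log2 difference was 0.02 without the block and 0.05 with it. The list of PPARδ and PPARα targets had 20 of 28 genes tested and a KO median of 0.01. In control cells their median was 0.45 and 10 rose, against 3.09% of all genes. At an unadjusted p under 0.05 with the block 2 of them were higher, against 2.33% of all genes, namely Angptl4 and Plin2, which are also in the PPARγ list. LXR targets had 16 tested, a KO median of 0.01 and 2 higher at that threshold, Nr1h3 and Nr1h2. Nr1h2 encodes LXRβ and had 16.6, 14.9 and 17.4 FPKM with rosiglitazone and 13.3, 12.1, 10.5 and 16.6 FPKM with DMSO in KO cells.

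The other lists of metabolism, stress and immunity also had 0 members that passed in KO cells. The next counts are of members at an unadjusted p under 0.05 with the block, a threshold that 2.33% of all genes met as higher and 1.81% as lower. Cholesterol synthesis (24 tested), fatty acid and triglyceride synthesis (14), mitochondrial fatty acid oxidation (19), endoplasmic reticulum chaperones (18), cytosolic heat shock (12), hypoxia and HIF1 targets (16), lysosome (25), cell cycle (25) and MHC class II presentation (9) had 0 in either direction. Oxidative phosphorylation (24), NRF2 antioxidant genes (20) and the xenobiotic response (7) had 1 higher each. The integrated stress response (17) had 2 higher and inflammatory genes (17) had 2 higher, while interferon-stimulated genes (21) had 3 higher. The IL4 response (21) and macrophage identity (15) had 1 lower each. KO medians without the block ran from -0.07 for chaperones to 0.10 for NRF2 genes and immediate early genes. In control cells 9 of 19 genes of mitochondrial fatty acid oxidation rose, against 3.09% of all genes. The 19 genes had a KO median of 0.05 without the block. Among inflammatory genes, Ccl4, a chemokine, had 11.9, 15.3 and 10.6 FPKM in KO cells with rosiglitazone and 7.80, 10.6, 13.6 and 8.78 FPKM with DMSO. In control cells Ccl4 fell by 0.65, and the genotypes differed by 0.94 (adjusted p = 0.0112). Mt1, a metallothionein that binds metal ions, had 31.2, 31.5 and 37.4 FPKM with rosiglitazone and 23.4, 28.4, 22.9 and 29.8 FPKM with DMSO in KO cells, with a log2 difference of 0.35 in KO cells and 0.32 in control cells.

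Clustered histone genes, which encode the core of the nucleosome and whose mRNAs mostly lack a poly(A) tail, formed a group added after its values were seen. Of 67 genes, 60 were tested, and their median log2 difference was 0.43 in KO cells and 0.22 in control cells; 0 passed in KO cells. With the block, 35 were higher and 1 lower at an unadjusted p under 0.05, against 2.33% and 1.81% of all genes. In mice 2, 3 and 4, 52, 55 and 56 of the 60 were higher, against 49.5%, 50.6% and 51.1% of all genes. Their mean level, as log2(rescaled FPKM + 1), was 3.09, 2.54 and 2.72 in KO libraries 1 to 3 with rosiglitazone and 2.28, 2.67, 2.01 and 2.41 in KO libraries 1 to 4 with DMSO. The groups overlap. Untreated KO cells had 2.72 to 3.03 and KO cells with IL4 2.67 to 3.81, so that 3 of the 4 libraries with DMSO, and rosiglitazone library 2, lay below both ranges. Hist1h4h, a gene for histone H4, had 23.2, 14.7 and 20.5 FPKM in KO cells with rosiglitazone and 5.91, 11.6, 6.92 and 13.5 FPKM with DMSO. It passed in the fit to the 6 libraries of mice 2 to 4 alone (adjusted p = 0.037, limma), with Hist1h4b and Hist2h2ac (adjusted p = 0.0414 each). Rpl34, a ribosomal protein gene with near-identical copies, was the only other gene that passed there, at -0.77. Histone genes have near-identical copies as well, so single values are uncertain.

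**Figure D5:**
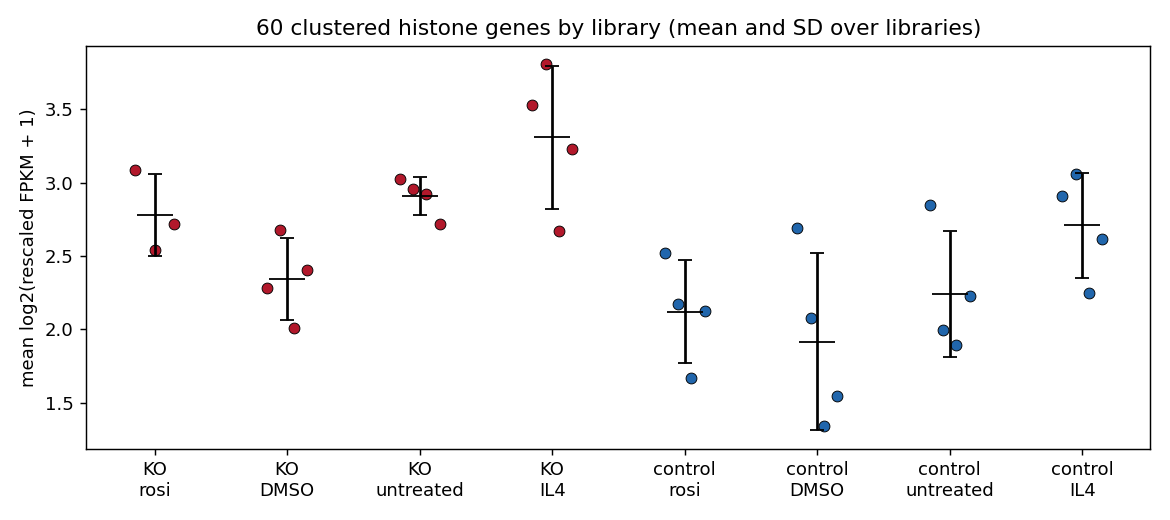
Mean log2(rescaled FPKM + 1) of 60 clustered histone genes in each of the 31 libraries (points), with the mean and SD of each group (bars; red, KO; blue, control). KO cells with rosiglitazone lie between 2.54 and 3.09 and KO cells with DMSO between 2.01 and 2.67; untreated KO cells lie between 2.72 and 3.03, above all 4 KO libraries with DMSO.

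The median difference in KO cells with the block also varied with transcript length. The histone genes had a median transcript length of 536.5 bases. Without them, the shortest 5% of genes (454) had a KO median of 0.05 with the block, with 29 higher and 3 lower at an unadjusted p under 0.05, against 2.33% and 1.81% of all genes. The longest 25% (2482) had -0.03, with 10 higher and 26 lower. Rn45s, the ribosomal RNA precursor, had 262, 376 and 188 FPKM in KO cells with rosiglitazone and 120, 118, 155 and 271 FPKM with DMSO. It was higher with rosiglitazone in mice 2 and 3 and lower in mouse 4, where the histone mean was higher. Cell cycle genes had a median of 0.05 with the block and 0.00 without it, and 0 of 25 tested met that threshold. The part of transcript length in the histone result was not tested.

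The remaining genes of smallest p in KO cells did not pass. Among those higher, Elp6, a subunit of the Elongator complex, had 1.29, 1.27 and 1.20 FPKM with rosiglitazone and 0.613, 0.864, 0.888 and 0.874 FPKM with DMSO. Trp53i13 had 1.41, 0.970 and 1.01 FPKM with rosiglitazone and 0.479, 0.757, 0.441 and 0.866 FPKM with DMSO. Among those lower, Klhl2, an adaptor of a ubiquitin ligase, had 7.45, 6.87 and 6.31 FPKM with rosiglitazone and 8.01, 7.82, 8.35 and 7.55 FPKM with DMSO. Nedd1, a protein of the centrosome, had 4.77, 4.93 and 4.89 FPKM with rosiglitazone and 5.63, 6.16, 5.97 and 5.56 FPKM with DMSO. Mir1668, a microRNA gene, had 0, 0 and 0.293 FPKM with rosiglitazone and 2.04, 0.666, 0.245 and 0.562 FPKM with DMSO, and its groups overlap. Mipep, a mitochondrial peptidase, had 2.10, 2.53 and 2.49 FPKM with rosiglitazone and 2.74, 3.26, 2.89 and 2.90 FPKM with DMSO. None of these genes passed in control cells, and log2 differences there ran from -0.16 for Klhl2 to 0.06 for Trp53i13.

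The genes whose level followed Angptl4 most closely over the 15 KO libraries were Cyb561 (Pearson r = 0.776), Tada1 (0.765) and Tmem216 (0.733). These correlations are a description over libraries that share mice. Cyb561 had 0.688, 0.221 and 0.355 FPKM in KO cells with rosiglitazone and 0.300, 0.389, 0.307 and 0.251 FPKM with DMSO. As for Angptl4, its highest value of the 7 was in rosiglitazone library 1.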

How the data were processed

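Peritoneal macrophages were profiled by sequencing of total RNA with a stranded kit, per the labels' protocols. The authors deposited a table of FPKM per gene symbol; TopHat2, featureCounts, edgeR and build mm9 are named in the submitters' processing notes, without versions or roles. The table lists 24302 symbols; 25 rows named by dates were left out. Each of the 31 libraries was divided by its median ratio to the geometric mean of each gene (factors 1.00 to 1.14 in the 7 libraries). A gene entered the tests (10327 did) where 3 or more libraries had 1 FPKM or more.

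Log2(rescaled FPKM + 1) was fitted with group means over all 31 libraries in limma 3.58.1 (R 4.3.3) with an intensity trend; tests were two-sided, p was adjusted by Benjamini-Hochberg over all genes, and genes passed under 0.05. Fold changes on this scale understate those of low genes. Only the fit without the block was tested on simulated data, with set differences larger than that of Angptl4 in KO cells. Rescaling, the filter, the pairing of mice and the fit with the block were not tested in this way. The labels do not state which mice KO rosiglitazone libraries 1 to 3 come from. Their sample list numbers are 22 to 24, after 20 for the last control library with rosiglitazone, so a number is skipped before them. All pairs with the KO DMSO library of the next higher number correlated over 0.1 (0.43 to 0.79). Rosiglitazone library 1 correlated at 0.11 with untreated KO library 2 and at 0.41 with untreated KO library 3. The libraries were therefore paired with mice 2 to 4 in a second fit with the mouse as a block.

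Relative depth was read from genes below 0.1 FPKM, whose ratios to KO DMSO library 1 fell, for 68.9% to 75.7% of genes and within 0.1%, on multiples of 1 step by fractions of whole numbers not above 5; shifted steps gave at most 0.230%. Counting error was given no interval.

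Genes named are Pparg, the 6 of smallest p in each direction and the 8 of smallest p with the block, the 12 largest increases and 8 largest decreases in control cells, tested PPARγ targets and receptors, and up to 3 members of each other list and marker list, and 3 genes that follow Angptl4, of which a selection is printed; C5ar1, Arrdc4, Pfkfb4, Ppara, Ddx3y, Xist, Rn45s, genes listed at 0 and the histone and Rpl34 results were chosen after their values were seen. Members, lists and rule were chosen with earlier results of these data known. No gene set was tested. Alternatives were scaling, filter, pseudocount, samples fitted, blocks and libraries left out.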

Additional observations from a re-analysis of the deposited data

Results flagged for a closer look

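For 20 of the genes with values in the report the responses to rosiglitazone in KO and control cells differed by the test of the difference itself (limma, adjusted p under 0.05). On the log2 scale, as KO minus control, the difference was -3.32 for Ear2, -2.51 for Angptl4, -1.84 for Gdf15, -1.28 for Unc119, -1.25 for Slco2b1 and -1.22 for Lpcat3. Ear2, Slco2b1 and Angptl4 were low in KO cells, where this scale understates fold changes. It was -1.08 for Plin2, -1.07 for Ech1, -1.07 for Fos, -1.02 for Abcg1, -0.97 for Pnpla2, -0.87 for Dgat1, -0.65 for Hadha, -0.59 for Nr1h3 and -0.52 for Acsl1. It was 1.00 for Arl4c, 0.98 for Slc7a11, 0.95 for Cxcl16, 0.95 for Slc2a6 and 0.94 for Ccl4, which fell in control cells.

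Of 168 groups of 4 libraries screened, 3 for each of 56 genes, 9 held a single value far from the other 3. In KO cells with DMSO this was 0.613 FPKM for Elp6, the lowest, and 5.88 FPKM for Nat2, the highest; Nat2, an acetyltransferase, had 3.27, 4.09 and 5.44 FPKM in KO cells with rosiglitazone. In control cells with rosiglitazone it was 1.58 FPKM for Myc and 4.70 FPKM for Arrdc4, and in control cells with DMSO 6.64 FPKM for Btg2 and 6.74 FPKM for Nedd1. For the Y-linked gene Ddx3y it was 19.5 FPKM in KO cells with DMSO, 16.3 FPKM in control cells with rosiglitazone and 17.2 FPKM in control cells with DMSO. The critical value used is that of Dixon's test at the 95% level, which by its definition about 1 in 20 groups pass by chance.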

How the results depend on the processing

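The number of genes that passed in KO cells was 0 under every scaling, filter and pseudocount tried and with any 1 of the 7 libraries left out without the block (0 to 0). With the replicate block of matched mice it was 4 in the 6 libraries of mice 2 to 4. It was 5 without KO DMSO library 4 (Angptl4, Gdf15, Rab20, Sfrp5 and Arrdc3) and 2 without KO Rosi library 2 (Angptl4 and Txnip), both alternatives chosen after seeing the data. Sfrp5 overlapped between the KO groups, with 6.69, 1.17 and 9.11 FPKM with rosiglitazone and 4.93, 4.39, 0.441 and 8.84 FPKM with DMSO. In control cells the count was 444 and went to 91 with FPKM as deposited, 713 with the replicate block as titled, 1391 with matched mice, 285 to 418 with 1 of the 8 control libraries left out (285 without Control Rosi library 2) and 419 to 483 with 1 of the 7 KO libraries left out. For the difference between genotypes it was 82, then 19 with FPKM as deposited, 48 with only the groups compared, 165 with the block as titled, 354 with matched mice and 66 to 83 with 1 library left out. The KO median of the genes higher in control was -0.038 with FPKM as deposited (0.02 to 0.05 with 1 library left out), and that of the genes lower in control -0.12 (-0.07 to -0.03). The cause of these shifts was not tested. Angptl4 was above 0 in KO cells under all 27 settings (0.29 to 1.39) and Arrdc3 below 0 under all 28 (-0.53 to -0.33). No read totals were available to set how far depth limits low genes such as Angptl4.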

Other observations

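C5ar1, the receptor of complement fragment C5a, had 15.3, 20.9 and 13.4 FPKM in KO cells with rosiglitazone and 9.63, 11.5, 16.4 and 12.1 FPKM with DMSO, and was higher within each mouse, by 0.39, 0.34 and 0.14 on the log2 scale. In control cells C5ar1 averaged 26.5 ± 4.10 FPKM with rosiglitazone and 9.30 ± 2.44 FPKM with DMSO (SD, n = 4 each), and it rose there by 1.43 (adjusted p = 0.000176, limma). The difference between the genotypes was -1.04 ± 0.34 (SE), with an adjusted p of 0.268 without the mouse as a block and 6.22e-07 with it.

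Zfp36, which speeds the decay of inflammatory mRNAs, had 9.84, 9.54 and 7.98 FPKM in KO cells with rosiglitazone and 7.46, 6.00, 7.57 and 9.26 FPKM with DMSO. It differed by 0.63, 0.30 and -0.19 in mice 2, 3 and 4, and rose by 0.43 in control cells (adjusted p = 0.0127, limma). Nfkbia, an inhibitor of NF-κB, had 9.24, 9.28 and 7.01 FPKM in KO cells with rosiglitazone and 6.19, 6.98, 8.19 and 6.92 FPKM with DMSO, with a log2 difference of 0.23 in KO cells and 0.24 in control cells; it did not pass in either.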
